A study of Homo sapiens with 6 samples.

Results

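The DNA replication genes described here are 45 genes of the machinery that copies chromosomal DNA: origin licensing factors, the MCM, CDC45 and GINS proteins of the replicative helicase, the DNA polymerases, the sliding clamp and its loader, and enzymes that supply nucleotides and pack new DNA into chromatin. They were taken by gene symbol from a deposited table of 61487 gene IDs, and each matched 1 ID. No measured value was used as a rule for the choice, but earlier results of these data were known when it was made. All 45 were among the 16591 genes with enough counts to be tested. Polyadenylated RNA was sequenced from H2170, an established human line of lung squamous cell carcinoma grown in DMEM with fetal bovine serum. Control cells expressed GFP, WT cells overexpressed wild-type ACK1 fused to GFP, and IDRmut cells overexpressed an ACK1-GFP fusion whose altered residues the labels do not list, with 2 libraries per group. ACK1, the product of TNK2, is a tyrosine kinase of the cytoplasm, and the series asks how condensates of ACK1 regulate genes. The promoter of the transgenes, the time after their introduction and whether cells were a pool or a clone are given in none of the sources used here.

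Origins are licensed for replication in G1, when ORC1 to ORC6, CDC6 and CDT1 load the ring-shaped MCM2-7 complex onto them. Geminin (GMNN) blocks this step later in the cycle. In S phase CDC45 and the GINS tetramer join MCM2-7 to form the active helicase. DNA polymerase alpha with primase lays down primers, polymerases epsilon and delta extend the leading and lagging strands, and PCNA, loaded by the RFC complex, holds them on the template. Transcripts of many of these genes rise towards S phase under E2F transcription factors, so the group is a common measure of proliferation in tumour cells.

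Promoter sequence from RefSeq on GRCh38.p14 was matched to 39 of the 45 genes, as 49 windows of 250 bases before to 50 bases after a start site. The letters TTTCCCGC, TTTCGCGC, TTTGCCGC or TTTGGCGC, which are 4 forms of the E2F site, were searched on both strands and counted once per window. They stood in 38.8% of the windows of these genes, in 4.78% of the windows of all genes tested and in 3.31% of all 35116 promoter windows. By gene, 19 of the 39 replication genes held them (48.7%), against 6.51% of genes tested. The 4 stretches below are the 120 bases before the start site of a licensing factor's regulator, a helicase subunit, the sliding clamp and a polymerase, shown 5′ to 3′ on the strand of the gene with the E2F letters in capitals. In MCM6 a pair of matches on opposite strands overlaps, and another such pair lies in its window before the stretch printed; the GMNN stretch belongs to the second of its listed start sites.
GMNN: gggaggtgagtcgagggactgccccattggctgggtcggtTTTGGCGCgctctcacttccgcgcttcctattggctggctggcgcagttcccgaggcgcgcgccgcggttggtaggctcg
MCM6: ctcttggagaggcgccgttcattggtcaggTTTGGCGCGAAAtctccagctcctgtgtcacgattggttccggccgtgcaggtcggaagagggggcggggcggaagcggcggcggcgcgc
PCNA: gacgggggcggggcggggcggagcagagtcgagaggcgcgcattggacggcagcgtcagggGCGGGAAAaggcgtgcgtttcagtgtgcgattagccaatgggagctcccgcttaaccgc
POLE: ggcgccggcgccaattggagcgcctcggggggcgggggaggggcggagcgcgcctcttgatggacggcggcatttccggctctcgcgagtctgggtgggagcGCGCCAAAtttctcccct
They lie at chr6:24775293-24775412 (plus strand), chr2:135876444-135876563 (minus), chr20:5126623-5126742 (minus) and chr12:132687343-132687462 (minus). In these stretches the first base of the match stood 80 bases before the start site in GMNN, 90 and 86 bases before it in MCM6, 59 in PCNA and 18 in POLE. In GENCODE 29 the last 23 bases of the POLE stretch, the match among them, and the last 4 of the PCNA stretch lie in an exon of the same gene. The CCAAT letters were found in 61.5% of the 39 genes, against 43.3% of genes tested, and the GC box GGGCGG in 76.9% against 75.3%. The letters TTTGAA or TTCGAA, forms of the CHR element found at many mitotic promoters, were found in 5.13% of the replication genes, against 15.8% of genes tested and 72.4% of a list of mitotic genes. A match describes letters in a window, not a bound site.

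TNK2 stood at 41.1 and 43.1 CPM in the libraries of Control, 3514 and 3613 CPM in those of WT and 1762 and 1455 CPM in those of IDRmut, which matches the labels. CPM here are counts scaled to a common library size by TMM, and replicate 1 is given first in each pair. The log2 difference of WT over IDRmut was 1.15 ± 0.06 (± SE, as for all log2 fold changes below), so differences between the arms below cannot be told apart from the difference in ACK1 transcript. Library totals ran from 19128111 to 33540998 counts. Between replicates the chi-square per gene reached 3.73 in IDRmut, 1.70 in Control and 1.55 in WT, so the IDRmut libraries differed most from each other. Of 10 listed squamous and epithelial markers 8 were tested, and EPCAM and CDH1 had at most 4 counts in any library. The sum of the 8 was 1861 to 1869 CPM in Control, 988 to 1014 in WT and 1436 to 1567 in IDRmut. In WT 4 rose and 3 fell, in IDRmut 6 rose and 2 fell, and 7 of 8 were lower in WT than in IDRmut; KRT14, the most abundant, had log2 fold changes of -1.20 ± 0.04 in WT and -0.60 ± 0.04 in IDRmut. Of 8 fibroblast markers 6 were tested, and their sum, mostly COL1A2, was 883 to 907 CPM in Control, 705 to 716 in WT and 925 to 985 in IDRmut, with LUM and DCN at most at 5 counts. PTPRC, the pan-leukocyte marker, had at most 5 counts, and CD3E had none in any library. Of 6 listed endothelial markers 4 were tested, and their sum, nearly all CDH5, was 219 to 226 CPM in Control, 50.8 to 52.8 in WT and 99.0 to 102 in IDRmut, with PECAM1 at most at 7 counts. The part of these marker lists in the results below was not tested. Nothing in the labels says whether the replicates are separate cultures, so each p reflects only the spread between these samples, and that spread may be technical.

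Most replication genes were lower in both ACK1 arms than in Control. In WT 33 of 45 fell and 2 rose, where 17.6% of all genes tested fell and 17.4% rose. In IDRmut 41 of 45 fell, where 15.9% of all genes fell and 15.6% rose. The median level was 85.6 CPM for the 45 genes and 16.8 CPM for all genes tested. Small changes are called more readily at higher counts, and these shares were not matched for level. No replication gene rose in IDRmut at an adjusted p under 0.05 in the quasi-likelihood test of edgeR, adjusted over all genes by the Benjamini-Hochberg method; 1 was higher at an unadjusted p under 0.05, and DESeq2 also called 0 higher. The median log2 fold change was -0.24 in WT and -0.28 in IDRmut, against 0.00 over all genes tested in each, so the changes were small: a typical member lost 15.4% of its transcript in WT and 17.4% in IDRmut. In RNA from a whole culture, fewer cells that express a gene and less RNA per cell cannot be told apart.

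Summed over the 45 genes, the level was 6034 and 6104 CPM in the Control libraries, 5234 and 5268 CPM in WT and 4828 and 4806 CPM in IDRmut. The 3 groups were far apart relative to their replicates, with Control highest and IDRmut lowest. The sum changed by -13.5% in WT and by -20.6% in IDRmut. Gene by gene, all 4 ACK1 libraries were below both Control libraries for 39 of 45 genes, where 20.7% of all genes tested showed that order. Both arms were compared with the same 2 Control libraries, so the counts in WT and IDRmut are not independent. The call was lower in both arms for 32 of 45 genes (9.38% of all genes), in IDRmut with no call in WT for 9 (5.96%), and in WT with no call in IDRmut for RFC3 alone (7.56%).

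**Figure D1:**
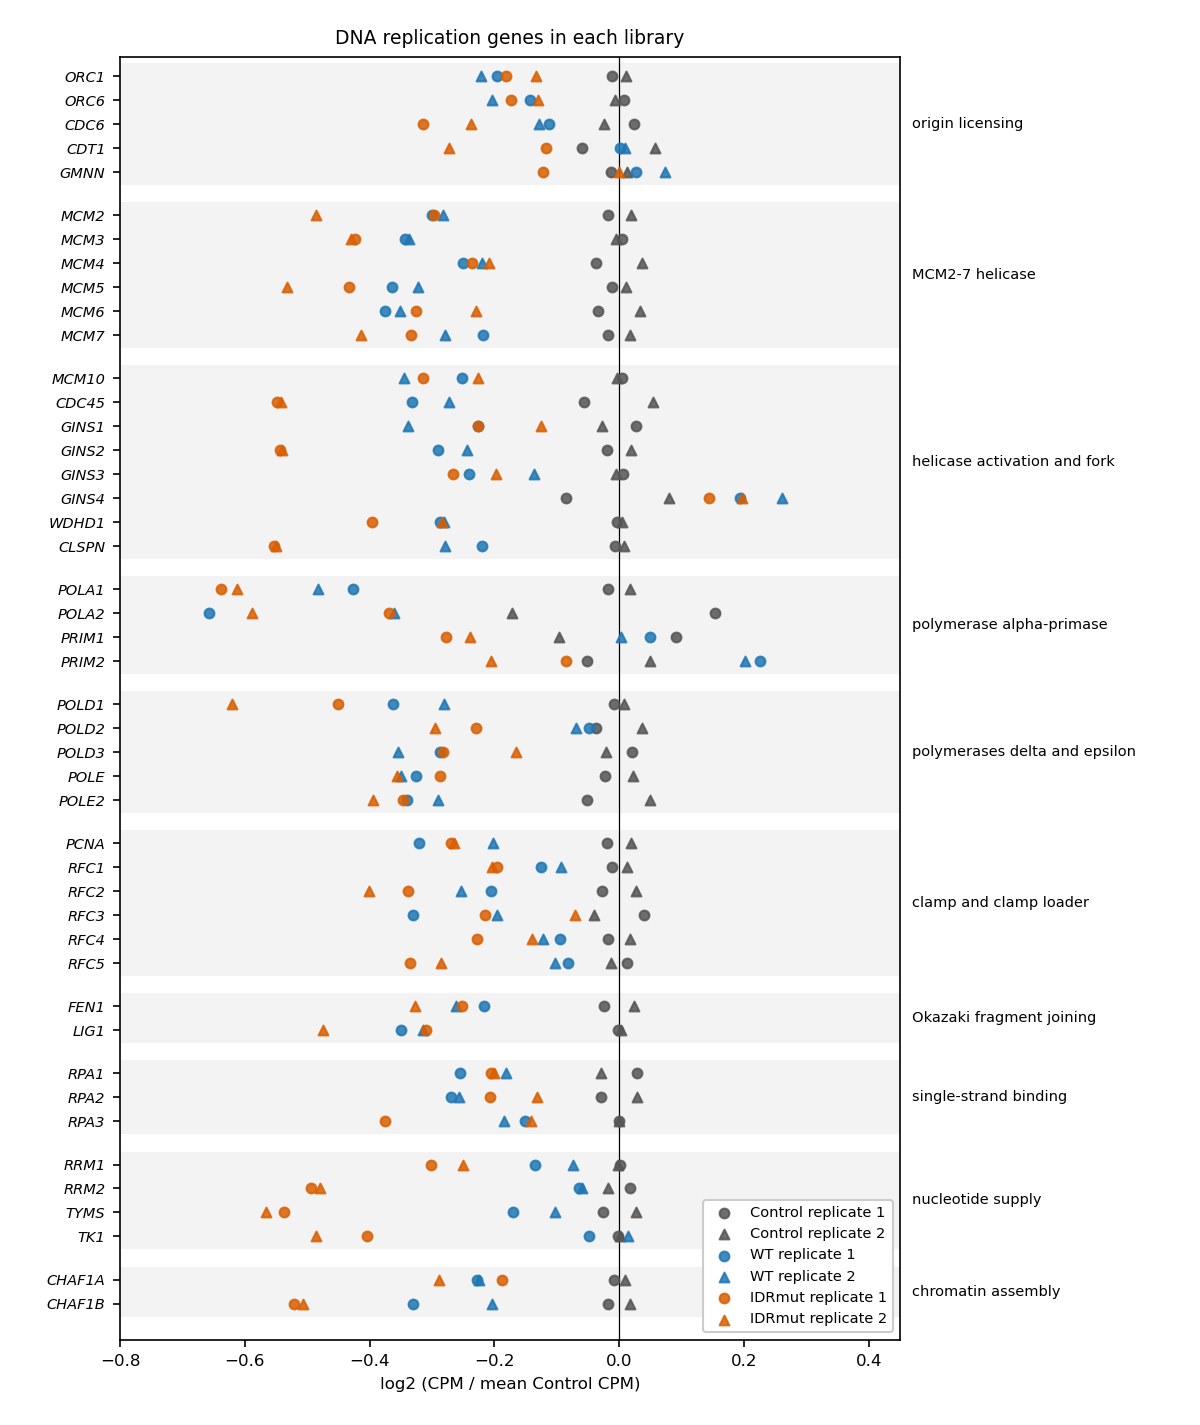
Level of each of the 45 replication genes in each library, as log2 of its CPM over the mean CPM of the 2 Control libraries (x axis), with genes in rows grouped by role. Points are single libraries, grey for Control, blue for WT and orange for IDRmut, and most coloured points lie to the left of the grey ones, apart from genes such as GINS4, PRIM2 and GMNN.

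Scaling by library totals in place of TMM moved the balance of calls over all genes but left the direction of the group. In WT against Control 49.8% of all calls were higher with TMM and 67.2% with library totals. With library totals 29 replication genes still fell and 2 rose, where 11.6% of all genes tested fell and 23.8% rose. In IDRmut against Control the shares of calls that were higher were 49.5% and 60.2%. There 36 replication genes fell and 1 rose with library totals, where 12.7% of all genes tested fell and 19.3% rose.

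Origin licensing showed the smallest change in summed level in IDRmut of the 10 role groups, -11.7%, and a change of -6.88% in WT. Of 5 genes, 3 fell in WT and 4 in IDRmut. ORC1, the largest subunit of the origin recognition complex (chromosome 1, 52372829 to 52404459, minus strand; positions here and below are on GRCh38), stood at 63.1 and 64.1 CPM in the Control libraries, 55.5 and 54.6 CPM in WT and 56.1 and 58.0 CPM in IDRmut. All 4 ACK1 libraries were below Control, with WT lowest, and the log2 fold change was -0.21 ± 0.05 in WT (edgeR adjusted p = 0.0028) and -0.16 ± 0.05 in IDRmut (adjusted p = 0.023). The difference of WT over IDRmut, -0.05 ± 0.05, was not called (adjusted p = 0.47). The IDRmut call of ORC1 was lost in 8 of 15 alternatives, among them without Control 1, Control 2 or IDRmut 1 (log2 fold change -0.17 to -0.13), where Control 1 stands for replicate 1 of Control, and so on. ORC6, the smallest subunit of the same complex, fell by 0.18 in WT and by 0.15 in IDRmut on the log2 scale, the WT call being lost in 1 of 15 alternatives, without WT 2 (log2 fold change -0.15) and the IDRmut call in 3 of 15 alternatives, among them without Control 1 or Control 2 (log2 fold change -0.16 to -0.15).

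CDC6, the ATPase that recruits MCM2-7 with CDT1, stood at 137 and 133 CPM in the Control libraries, 125 and 124 CPM in WT and 109 and 115 CPM in IDRmut. The 3 groups did not overlap, with IDRmut lowest. Its log2 fold change was -0.28 ± 0.04 in IDRmut (edgeR adjusted p = 9.9e-05) and -0.12 ± 0.04 in WT (adjusted p = 0.033). The WT call was lost in 9 of 15 alternatives, among them those that left out any 1 Control or WT library (log2 fold changes -0.15 to -0.10). CDT1, in WT, lay between the Control libraries (0.01 ± 0.06, adjusted p = 0.95) and fell in IDRmut by 0.19, a call lost in 4 of 15 alternatives, among them without Control 2 or IDRmut 2 (log2 fold change -0.14 to -0.12). GMNN, the inhibitor of CDT1, was the 1 replication gene called in no comparison, where 49.2% of all genes were called in none. It stood at 65.5 and 66.7 CPM in the Control libraries, 67.4 and 69.5 CPM in WT and 60.7 and 66.1 CPM in IDRmut, so the WT libraries lay above Control and the IDRmut libraries overlapped it. GMNN also holds the E2F letters printed above.

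All 6 subunits of the MCM2-7 helicase fell in both arms. MCM3 carried the smallest adjusted p of the complex in both and stood at 425 and 422 CPM in the Control libraries, 334 and 335 CPM in WT and 316 and 314 CPM in IDRmut (chromosome 6, 52264009 to 52284881, minus strand). Replicates lay close together and the 3 groups did not overlap. The log2 fold change of MCM3 was -0.34 ± 0.03 in WT (edgeR adjusted p = 4.8e-07) and -0.43 ± 0.03 in IDRmut (adjusted p = 4.7e-08). MCM5 stood at 169 and 171 CPM in the libraries of Control, 132 and 136 CPM in those of WT and 126 and 117 CPM in those of IDRmut, again in 3 separate steps, with log2 fold changes of -0.34 ± 0.04 and -0.48 ± 0.04. MCM6, the subunit with the overlapping E2F letters, went the other way between the arms, at 188 and 197 CPM in the libraries of Control, 148 and 151 CPM in those of WT and 154 and 164 CPM in those of IDRmut: both arms were below Control and WT was the lower of the 2 arms, but the arms differed by -0.09 ± 0.04, which was not called (adjusted p = 0.16).

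The 6 subunits are built into the complex in equal numbers, but their transcripts were not equal. Per length, on the TPM scale (counts per length scaled to a common total, from exon lengths of GENCODE 29), Control levels were 441 ± 8.34 for MCM3, 412 ± 1.59 for MCM7, 188 ± 4.27 for MCM4, 177 ± 3.27 for MCM6, 127 ± 0.512 for MCM2 and 88.0 ± 0.261 for MCM5 (mean ± SD, n = 2). Of neighbours in that order, MCM4 and MCM6 lay closest. Union exon lengths count rare exons, so an order between genes holds only on this scale. The fold changes of the complex spanned a narrow range, -0.36 to -0.23 in WT and -0.48 to -0.22 in IDRmut. MCM2 shares 23.6% of its exon bases with another gene, and reads of overlapping genes could not be separated.

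Of 8 genes that activate the helicase or act at the fork, 7 fell in both arms and GINS4 did not. MCM10, which is needed to start the assembled helicase, stood at 88.2 and 87.7 CPM in the Control libraries, 73.9 and 69.3 CPM in WT and 70.7 and 75.2 CPM in IDRmut, and both arms were below Control and overlapped each other. Its log2 fold change was -0.30 ± 0.05 in WT (edgeR adjusted p = 1.2e-04) and -0.27 ± 0.05 in IDRmut. CDC45, the helicase cofactor, stood at 46.1 and 49.8 CPM in the libraries of Control, 38.1 and 39.7 CPM in those of WT and 32.8 and 32.9 CPM in those of IDRmut. It fell to separate levels in the arms, by 0.30 in WT and by 0.54 in IDRmut on the log2 scale.

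CLSPN, claspin, links the fork to the checkpoint kinase CHEK1. It stood at 98.8 and 99.8 CPM in the Control libraries, 85.3 and 81.8 CPM in WT and 67.7 and 67.9 CPM in IDRmut (chromosome 1, 35720218 to 35769967, minus strand). Again the groups stood in 3 steps with IDRmut lowest, and the log2 fold change was -0.25 ± 0.04 in WT and -0.55 ± 0.05 in IDRmut (edgeR adjusted p = 7.8e-08). WT exceeded IDRmut by 0.30 ± 0.05 on the log2 scale (adjusted p = 9.3e-05). WDHD1, an adaptor between the helicase and polymerase alpha, fell by 0.28 in WT and by 0.34 in IDRmut with no call between the arms.

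The 4 GINS subunits, which form a tetramer with 1 copy of each, did not move together. GINS2 stood at 74.5 and 76.4 CPM in the Control libraries, 61.7 and 63.7 CPM in WT and 51.7 and 51.9 CPM in IDRmut, a 3-step pattern like that of CLSPN, with log2 fold changes of -0.26 ± 0.05 and -0.54 ± 0.05. GINS1 stood at 52.5 and 50.6 CPM in the Control libraries, 44.0 and 40.7 CPM in WT and 44.0 and 47.3 CPM in IDRmut, with the lowest library in WT. GINS1 had the largest difference towards IDRmut of all 45 genes, -0.12 ± 0.06 for WT over IDRmut, which was not called (edgeR adjusted p = 0.17). Its fall in IDRmut (-0.17 ± 0.06) was lost in 7 of 15 alternatives, among them without Control 1, Control 2 or IDRmut 1 (log2 fold change -0.20 to -0.13). GINS3 fell by 0.18 in WT and by 0.23 in IDRmut, calls lost in 7 of 15 alternatives, among them without Control 1, Control 2 or WT 1 (log2 fold change -0.19 to -0.14) and in 2 of 15 alternatives, among them without Control 1 (log2 fold change -0.23).

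GINS4 was higher in every ACK1 library than in Control, at 29.4 and 33.0 CPM in the Control libraries, 35.7 and 37.4 CPM in WT and 34.5 and 35.7 CPM in IDRmut. It rose in WT by 0.23 ± 0.07 on the log2 scale (edgeR adjusted p = 0.01), while its value in IDRmut, 0.17 ± 0.07, had an adjusted p of 0.063. The WT call was lost in 3 of 15 alternatives, among them without Control 1 or WT 2 (log2 fold change 0.15 to 0.19); the other was DESeq2. GINS4 shares 23.6% of its exon bases with another gene. Per length in Control, GINS2 led with 87.8 ± 0.391 TPM, followed by GINS1 with 48.1 ± 1.95, GINS3 with 29.3 ± 0.571 and GINS4 with 21.6 ± 1.44 (mean ± SD, n = 2).

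Polymerase alpha-primase showed the lowest summed level in IDRmut relative to Control of the 10 role groups, with a change of -30.3%, against -19.8% in WT. Most of that sum is POLA1, the catalytic subunit of the polymerase. POLA1 (chromosome X, 24693919 to 24996986, plus strand) stood at 142 and 145 CPM in the Control libraries, 107 and 103 CPM in WT and 92.3 and 94.0 CPM in IDRmut. The arms were well below Control and separate from each other, and the log2 fold change was -0.46 ± 0.04 in WT (edgeR adjusted p = 1.6e-07) and -0.63 ± 0.04 in IDRmut (adjusted p = 6.9e-09), the largest fall of any replication gene in IDRmut. In IDRmut POLA1 fell by 35.2%, and in WT it fell by 27.1%.

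The accessory subunit POLA2 had the largest fall of the 45 genes in WT, -0.48 ± 0.13, but at low counts. It stood at 10.7 and 8.50 CPM in the Control libraries, 6.07 and 7.46 CPM in WT and 7.41 and 6.37 CPM in IDRmut, with the Control libraries further from each other than those of most replication genes. 35.1% of its exon bases overlap another gene. The WT call was lost in 3 of 15 alternatives, among them without Control 1 or WT 1 (log2 fold change -0.36 to -0.30) and the IDRmut call (-0.48 ± 0.14) in 3 of 15 alternatives, among them without Control 1 or IDRmut 2 (log2 fold change -0.37 to -0.31). DESeq2 called neither.

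Neither primase subunit was called lower in WT. PRIM2, the large subunit with the iron-sulphur cluster, stood at 21.3 and 22.8 CPM in the Control libraries, 25.8 and 25.3 CPM in WT and 20.8 and 19.1 CPM in IDRmut. WT was the highest group and IDRmut the lowest, without overlap, and PRIM2 rose in WT by 0.21 ± 0.07 (edgeR adjusted p = 0.029), while its IDRmut value of -0.14 ± 0.08 had an adjusted p of 0.17. That WT call was lost with DESeq2 and when any 1 Control or WT library was left out (log2 fold changes 0.16 to 0.26), whereas WT was called above IDRmut in each of the 15 alternatives (0.36 ± 0.07, adjusted p = 0.0013). PRIM1, the catalytic subunit, stood at 16.2 and 14.3 CPM in the libraries of Control, 15.8 and 15.3 CPM in those of WT and 12.6 and 12.9 CPM in those of IDRmut, so WT overlapped Control and IDRmut was below both. Its fall in IDRmut (-0.26 ± 0.09, adjusted p = 0.04) was lost in 10 of 15 alternatives, among them without Control 1, WT 2, IDRmut 1 or IDRmut 2 (log2 fold change -0.28 to -0.16). 21.6% of the exon bases of PRIM1 overlap another gene.

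Of the 5 listed subunits of polymerases delta and epsilon, 4 fell in WT and 5 in IDRmut. Their partners POLD4, POLE3 and POLE4 are counted with the other replication genes below, and none was called in IDRmut against Control. In WT the log2 fold change was 0.90 ± 0.21 for POLD4, called higher at 32 to 123 counts per library. For POLE3 it was -0.12 ± 0.04, called lower, and POLE4 was not called. WT was also called below IDRmut for POLE3 (-0.17 ± 0.04). POLE, the catalytic subunit of the leading-strand polymerase, stood at 236 and 243 CPM in the Control libraries, 191 and 188 CPM in WT and 196 and 187 CPM in IDRmut (chromosome 12, 132623753 to 132687365, minus strand). Both arms were below Control by a like amount and overlapped each other, with log2 fold changes of -0.34 ± 0.04 in WT (edgeR adjusted p = 2.8e-06) and -0.32 ± 0.04 in IDRmut. POLE2, its second subunit, fell by 0.31 in WT, a call lost in 2 of 15 alternatives, among them without Control 2 (log2 fold change -0.26), and by 0.37 in IDRmut.

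The 3 listed subunits of polymerase delta, which copies the lagging strand, differed in their calls. POLD1, the catalytic subunit, stood at 94.4 and 95.4 CPM in the Control libraries, 73.8 and 78.1 CPM in WT and 69.4 and 61.7 CPM in IDRmut, with IDRmut below WT and WT below Control, and log2 fold changes of -0.32 ± 0.05 and -0.53 ± 0.06 (edgeR adjusted p = 1.1e-06 in IDRmut). POLD2, which joins the subunits, stood at 180.1 and 189.7 CPM in the libraries of Control, 179 and 176 CPM in those of WT and 158 and 151 CPM in those of IDRmut: the WT libraries lay just under Control without a call (-0.06 ± 0.04, adjusted p = 0.29), and IDRmut fell by 0.26. POLD3 stood at 55.4 and 53.8 CPM in the libraries of Control, 44.7 and 42.7 CPM in those of WT and 44.9 and 48.7 CPM in those of IDRmut, with WT lowest, and fell by 0.33 in WT and by 0.22 in IDRmut. Its difference of WT over IDRmut, -0.10 ± 0.06, was not called (edgeR adjusted p = 0.20). The IDRmut call of POLD3 was lost in 1 of 15 alternatives, without Control 1 (log2 fold change -0.20).

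In the clamp and its loader 4 of 6 genes fell in WT and 5 in IDRmut. PCNA, the sliding clamp and the most abundant of the 45 transcripts per length (549 ± 2.67 TPM in Control, mean ± SD, n = 2), stood at 209.7 and 215 CPM in the Control libraries, 170.1 and 185 CPM in WT and 176 and 177 CPM in IDRmut (chromosome 20, 5114953 to 5126626, minus strand). All ACK1 libraries were below Control and the arms overlapped, with log2 fold changes of -0.26 ± 0.04 in WT (edgeR adjusted p = 1.4e-04) and -0.27 ± 0.04 in IDRmut. The 5 RFC subunits, which form 1 loader that opens the PCNA ring, were spread. RFC2 stood at 95.9 and 99.6 CPM in the libraries of Control, 84.7 and 82.0 CPM in those of WT and 77.3 and 74.0 CPM in those of IDRmut and fell in 2 steps, by 0.23 in WT and by 0.37 in IDRmut. RFC5 stood at 83.1 and 81.7 CPM in the libraries of Control, 77.9 and 76.7 CPM in those of WT and 65.3 and 67.6 CPM in those of IDRmut, with a call in IDRmut (-0.31 ± 0.05, adjusted p = 7.0e-05) and none in WT (-0.09 ± 0.04, adjusted p = 0.12).

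RFC3 was the 1 gene that fell in WT with no call in IDRmut, at 107 and 101 CPM in the Control libraries, 82.6 and 90.7 CPM in WT and 89.5 and 98.9 CPM in IDRmut. All 4 ACK1 libraries were below Control and the arms overlapped. Its log2 fold change was -0.26 ± 0.06 in WT (edgeR adjusted p = 0.0017) and -0.14 ± 0.06 in IDRmut (adjusted p = 0.069), and the difference between the arms, -0.11 ± 0.06, was not called (adjusted p = 0.15). RFC1, the large subunit, fell by 0.20 in IDRmut, and its WT value of -0.11 ± 0.04 lost its call in 11 of 15 alternatives, among them each that left out a Control or WT library (log2 fold changes -0.13 to -0.09). RFC4 fell in IDRmut by 0.18, a call lost in 1 of 15 alternatives, without Control 2 (log2 fold change -0.17).

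Both enzymes that join Okazaki fragments fell in both arms. LIG1, DNA ligase I, stood at 91.8 and 92.1 CPM in the Control libraries, 72.2 and 73.9 CPM in WT and 74.2 and 66.1 CPM in IDRmut, with both arms below Control and overlapping each other. The log2 fold change was -0.33 ± 0.05 in WT (edgeR adjusted p = 8.4e-05) and -0.39 ± 0.05 in IDRmut (adjusted p = 2.4e-05). FEN1, the flap endonuclease, stood at 161 and 166 CPM in the libraries of Control, 141 and 136 CPM in those of WT and 137 and 130.4 CPM in those of IDRmut and fell by 0.24 and 0.29. The 3 subunits of RPA, which coats single-stranded DNA, fell in IDRmut, and RPA1 and RPA2 fell in WT. RPA2 stood at 111 and 116 CPM in the Control libraries, 94.4 and 95.2 CPM in WT and 98.5 and 104 CPM in IDRmut, the lowest libraries being WT, with log2 fold changes of -0.26 ± 0.04 and -0.17 ± 0.04. Its difference of WT over IDRmut, -0.09 ± 0.04, was not called (edgeR adjusted p = 0.13). The IDRmut call of RPA2 was lost in 1 of 15 alternatives, without Control 2 (log2 fold change -0.14) and that of RPA3 (-0.25 ± 0.07) in 4 of 15 alternatives, among them without Control 1, Control 2 or IDRmut 1 (log2 fold change -0.25 to -0.14). RPA1, the large subunit, fell by 0.22 in WT and by 0.20 in IDRmut.

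Nucleotide supply genes changed mainly in IDRmut. Their summed level was 1079.9 and 1068 CPM in the Control libraries, 1014 and 1034 CPM in WT and 784 and 785 CPM in IDRmut, a change of -4.68% in WT and of -26.9% in IDRmut. All 4 genes fell in IDRmut and all 4 were higher in WT than in IDRmut, whereas TYMS alone was called in WT against Control. RRM2, the regulated subunit of ribonucleotide reductase, which makes deoxyribonucleotides (chromosome 2, 10120698 to 10131419, plus strand), stood at 651 and 635 CPM in the Control libraries, 615 and 617 CPM in WT and 457 and 461 CPM in IDRmut. WT lay close under Control and IDRmut far below both. The log2 fold change of RRM2 was -0.49 ± 0.03 in IDRmut (edgeR adjusted p = 7.8e-09), -0.06 ± 0.03 in WT (adjusted p = 0.16) and 0.42 ± 0.03 for WT over IDRmut (adjusted p = 5.7e-08).

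TK1, the S-phase thymidine kinase of the salvage pathway (chromosome 17, 78174075 to 78187233, minus strand), stood at 155 and 156 CPM in the Control libraries, 150.5 and 157 CPM in WT and 118 and 111 CPM in IDRmut. WT overlapped Control, and IDRmut was below both. TK1 had the largest difference between the arms of the 45 genes, 0.43 ± 0.04 (edgeR adjusted p = 9.0e-07). TYMS, thymidylate synthase, makes dTMP and stood at 110.1 and 114 CPM in the libraries of Control, 99.7 and 104 CPM in those of WT and 77.3 and 75.8 CPM in those of IDRmut, with IDRmut again lowest (-0.55 ± 0.05). Its smaller WT fall (-0.13 ± 0.04, adjusted p = 0.026) was lost in 7 of 15 alternatives, among them without Control 1, Control 2 or WT 1 (log2 fold change -0.16 to -0.10). RRM1, the large reductase subunit, fell by 0.28 in IDRmut and had a WT value of -0.10 ± 0.04 (adjusted p = 0.058). Exon overlap with other genes was 20.2% for RRM2 and 46.6% for TYMS.

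**Figure D2:**
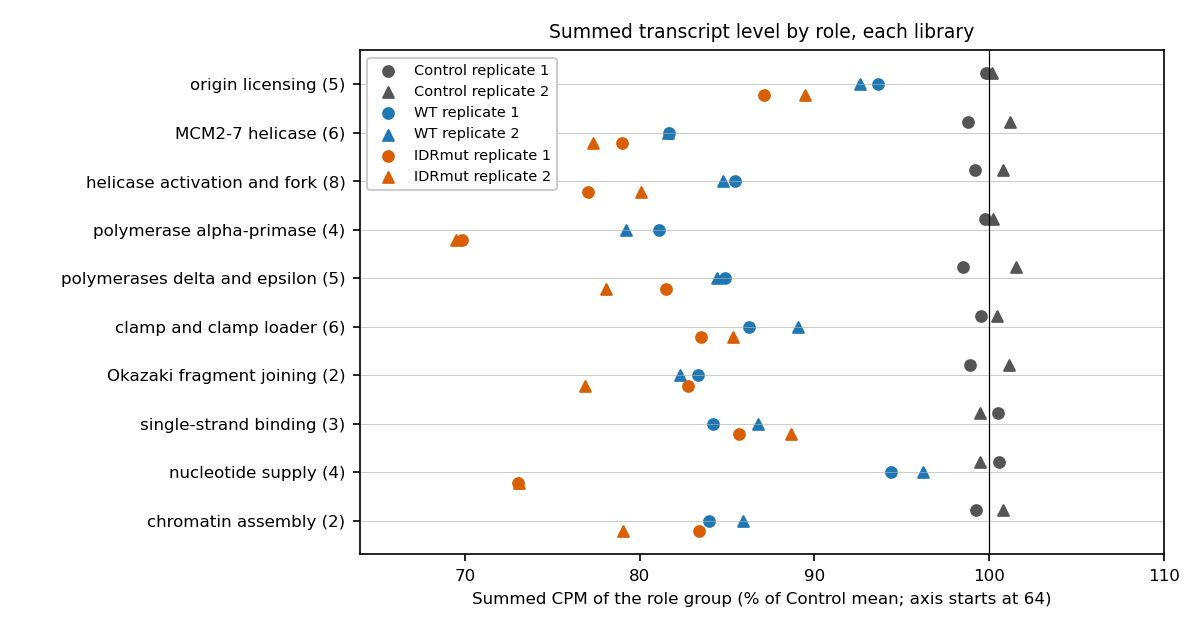
Summed CPM of each role group in each library as a percent of the mean of the 2 Control libraries (x axis, starting at 64%), with the number of genes in brackets; circles are replicate 1 and triangles replicate 2. The ACK1 libraries lie below Control in every group, and for nucleotide supply the WT libraries are at 94.4 and 96.2% and the IDRmut libraries at 73.0 and 73.1%.

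Both tested subunits of CAF-1, the histone chaperone that loads histones behind the fork, fell in both arms. CHAF1A stood at 119 and 121 CPM in the Control libraries, 102 and 103 CPM in WT and 105 and 98.1 CPM in IDRmut, with the arms overlapping and log2 fold changes of -0.23 ± 0.04 (edgeR adjusted p = 6.5e-04) and -0.24 ± 0.04. CHAF1B stood at 37.8 and 38.8 CPM in the libraries of Control, 30.5 and 33.3 CPM in those of WT and 26.7 and 27.0 CPM in those of IDRmut, in 3 steps, and fell by 0.26 in WT and by 0.51 in IDRmut. The WT call of CHAF1B was lost in 1 of 15 alternatives, without WT 1 (log2 fold change -0.20).

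Compared directly, 19 of 45 replication genes had higher levels in WT than IDRmut, where 14.2% of all genes tested did. None was lower at an adjusted p under 0.05 in edgeR, against 12.3% of all genes, 1 was lower at an unadjusted p under 0.05, and DESeq2 called 14 higher and 0 lower. The median log2 difference was 0.09, against 0.00 over all genes. The 3 largest differences were those of TK1 (0.43), RRM2 (0.42) and TYMS (0.42), followed by PRIM2, CLSPN, PRIM1 and GINS2. Genes called lower in both arms and also higher in WT numbered 11 (1.38% of all genes): CDC6, MCM5, MCM7, CDC45, GINS2, CLSPN, POLA1, POLD1, RFC2, TYMS and CHAF1B. By single libraries, IDRmut lay below WT and WT below Control without overlap for 19 genes (6.31% of all genes), and the reverse order of the arms below Control held for 5 (6.21%), ORC1, MCM6, GINS1, POLD3 and RPA2.

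The count depended on single libraries. It became smaller when 1 WT library was left out, and so did the number of calls over all genes. Whether the drop was particular to the replication genes was not tested. The median log2 difference over the 45 genes was 0.10 without WT replicate 1 and 0.08 without WT replicate 2. It was 0.09 without IDRmut replicate 1 and 0.09 without IDRmut replicate 2. Without IDRmut replicate 1 some of the 45 genes were also called lower in WT. In every one of the 15 alternatives CLSPN, GINS2, PRIM2, POLD2, RFC5, RRM2, TYMS and TK1 were called higher in WT. The call of POLA1 was lost in 1 of 15 alternatives, without WT 1 (log2 fold change 0.15), that of CDC45 in 1 of 15 alternatives, without WT 2 (log2 fold change 0.21), that of RRM1 in 1 of 15 alternatives, without WT 2 (log2 fold change 0.14) and that of CHAF1B in 2 of 15 alternatives, among them without WT 2 (log2 fold change 0.18). CDC6 lost its call in 2 of 15 alternatives, without WT 1 or WT 2 (log2 fold change 0.15 to 0.16) and POLD1 in 2 of 15 alternatives, without WT 2 or IDRmut 2 (log2 fold change 0.14 to 0.17). MCM5 lost its call in 4 of 15 alternatives, among them without WT 1, WT 2 or IDRmut 2 (log2 fold change 0.09 to 0.16), MCM7 in 3 of 15 alternatives, without WT 1, WT 2 or IDRmut 2 (log2 fold change 0.08 to 0.15), CDT1 in 4 of 15 alternatives, among them without WT 1, WT 2 or IDRmut 2 (log2 fold change 0.12 to 0.21) and PRIM1 in 4 of 15 alternatives, among them without WT 1, WT 2 or IDRmut 1 (log2 fold change 0.26 to 0.30). RFC2 (0.14 ± 0.05) lost its call in 8 of 15 alternatives, among them without Control 1, Control 2, WT 1, WT 2 or IDRmut 2 (log2 fold change 0.10 to 0.16).

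**Figure D3:**
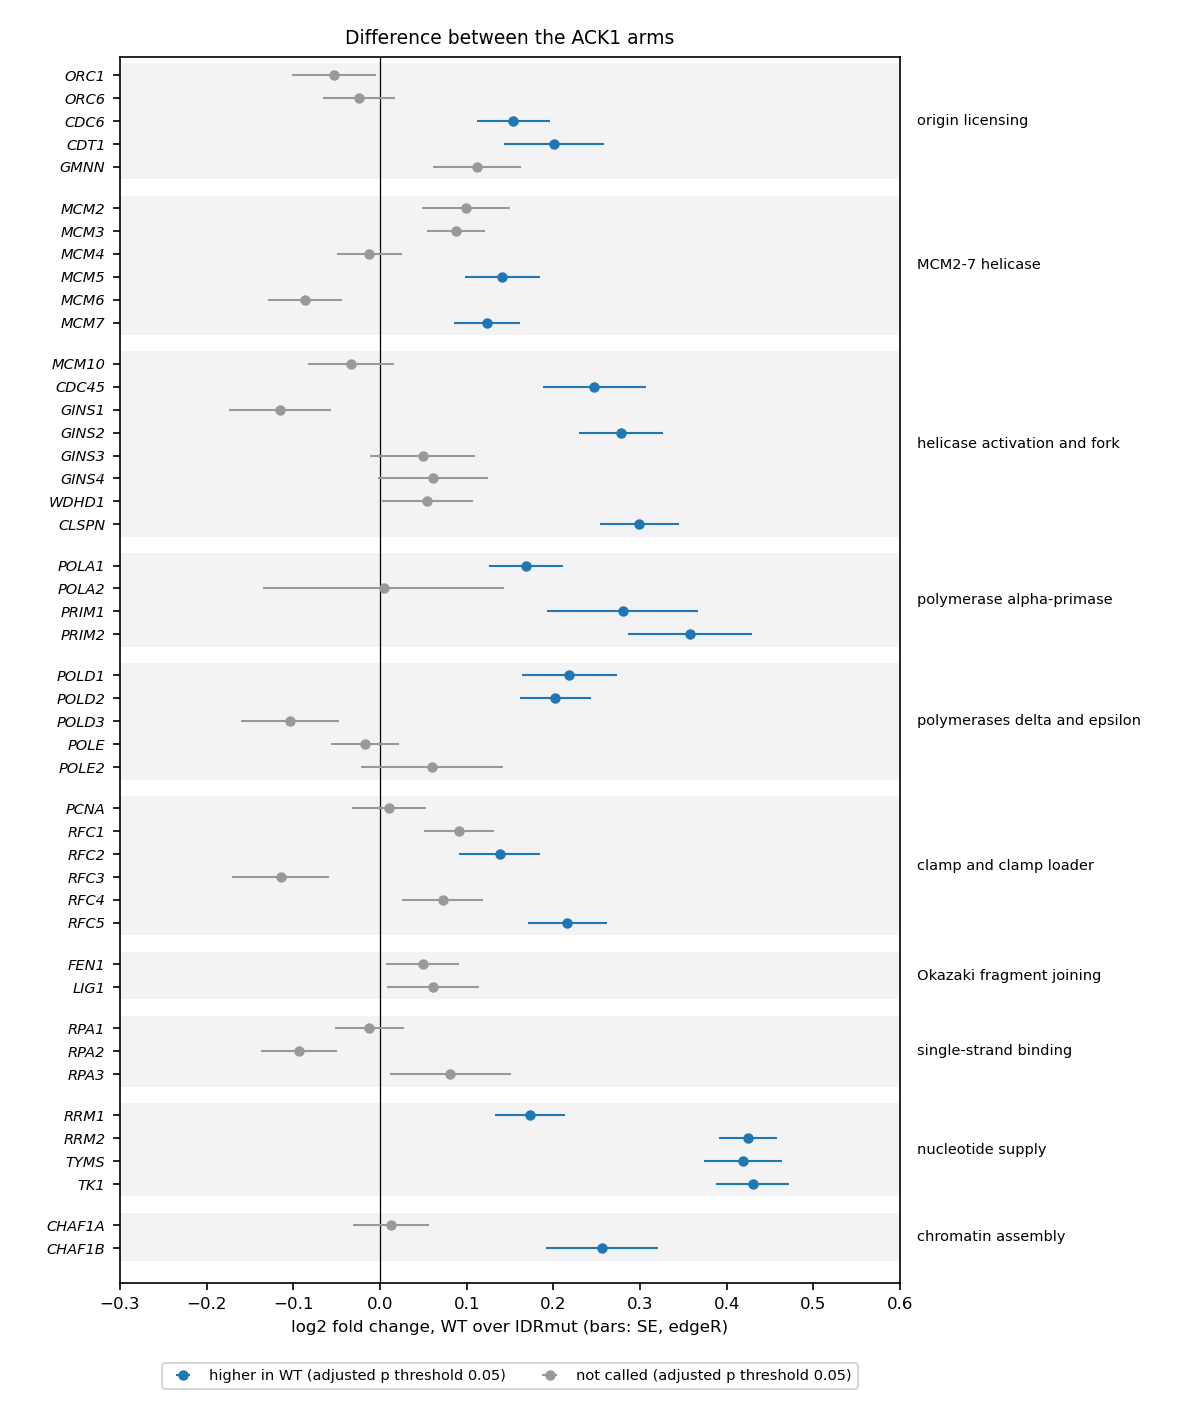
Log2 fold change of WT over IDRmut for each of the 45 genes (points, with bars of 1 SE from edgeR), grouped by role; blue marks an adjusted p under 0.05. All 4 nucleotide supply genes are blue, and no gene to the left of 0 is.

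The IDRmut libraries differed from each other in a way that followed base composition. Across the 45 genes, the log2 ratio of IDRmut replicate 1 to replicate 2 rose with the GC percent of each gene's longest transcript. The Pearson coefficient was 0.75 and the Spearman coefficient 0.72 (n = 45 genes of the same 2 libraries, which are not independent replicates). Over 10877 genes of at least 5 CPM the Pearson coefficient was 0.55. It was -0.17 across the 45 genes in Control and -0.14 in WT. MCM2, for example, stood at 133 and 117 CPM in the IDRmut libraries, against 133 and 135 CPM in WT. With an offset for GC content and length in each library, 42 genes fell and 1 rose in IDRmut against Control. Of all genes tested 18.5% fell and 18.7% rose with the offset, against 15.9% and 15.6% without it. WT exceeded IDRmut for 22 replication genes and was below it for 2. Over all genes these shares were 17.2% and 15.8% with the offset, against 14.2% and 12.3% without it.

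**Figure D4:**
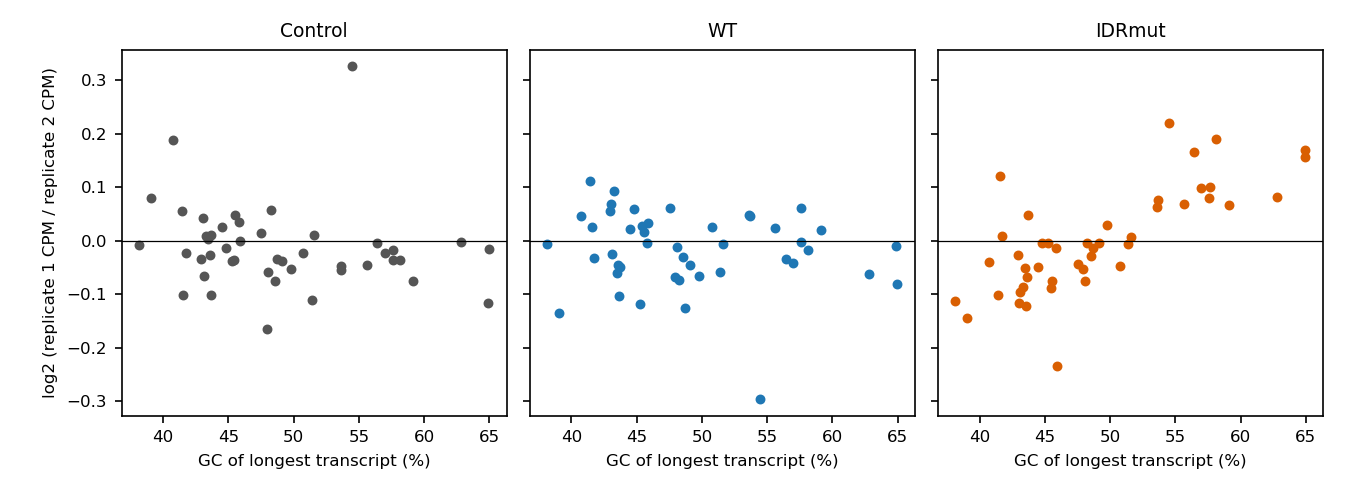
Log2 ratio of replicate 1 to replicate 2 (y axis) against the GC percent of the longest transcript (x axis) for the 45 replication genes, in a panel for each group. In IDRmut the points climb from left to right (Pearson coefficient 0.75), and in Control and WT they do not (-0.17 and -0.14).

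Other genes of the same processes, taken from lists drawn up by role, were set beside the 45. Of 37 tested other replication genes, 19 fell in WT and 3 rose, with a median log2 fold change of -0.13, and 19 fell in IDRmut and 1 rose (-0.18). TIMELESS, a fork protection factor, fell by 0.23 in WT and by 0.34 in IDRmut. DNMT1, which copies DNA methylation onto new strands, fell by 0.17 and 0.30, and its partner UHRF1 by 0.23 and 0.37. ORC3, of the origin recognition complex, rose by 0.40 in WT and by 0.37 in IDRmut. In the same complex ORC2 fell in WT by 0.13, ORC5 fell in IDRmut by 0.21 and ORC4 was called in neither arm. DBF4B and POLD4 rose in WT by 0.26 and 0.90 and were not called in IDRmut. The catalytic subunit of RNase H2, RNASEH2A, had 3 to 14 counts per library and was not tested.

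The wider set of nucleotide genes was mixed. Of 25 other nucleotide supply genes, 7 rose and 3 fell in WT (median 0.08), and 8 rose and 8 fell in IDRmut (median -0.01). SAMHD1, which breaks down deoxyribonucleotides, rose by 0.75 in WT and by 0.48 in IDRmut. IMPDH2, of guanine nucleotide synthesis, rose by 0.25 and 0.41, and UMPS, which makes UMP, by 0.42 and 0.25. The 3 genes called lower in WT, CTPS1, DCK and DUT, were also called lower in IDRmut.

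Regulators of the G1/S transition fell more often than they rose in both arms. Of 30 tested, 12 fell and 4 rose in WT (median -0.09), and 18 fell and 4 rose in IDRmut (median -0.28). Over all genes tested 17.6% fell and 17.4% rose in WT, and 15.9% fell and 15.6% rose in IDRmut. E2F1 and E2F2, activators whose site letters are common in these promoters and which were picked after their values were seen, fell by 0.44 and 0.34 in WT and by 0.67 and 0.68 in IDRmut. The third activator, E2F3, was not called, at -0.01 ± 0.05 in WT (edgeR adjusted p = 0.92) and -0.02 ± 0.05 in IDRmut (adjusted p = 0.8), and E2F4 and E2F5 rose in IDRmut by 0.21 and 0.33. The repressor E2F7 fell by 0.17 and 0.71, and MYBL2, a cell cycle transcription factor, by 0.32 and 0.72. CDKN1A, the CDK inhibitor p21, rose from 26.8 CPM in Control to 61.3 in WT and 40.4 in IDRmut (means of 2 libraries, log2 fold changes 1.20 ± 0.06 and 0.59 ± 0.06).

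Mitotic genes rose more often than they fell in WT and mostly fell in IDRmut. Of 34 tested, 11 rose and 4 fell in WT (median 0.04), while 23 fell and 1 rose in IDRmut (median -0.23), and 28 were higher in WT than in IDRmut (median 0.27). MKI67, the proliferation antigen, fell by 0.15 in WT and by 0.49 in IDRmut. BUB1, a spindle checkpoint kinase, rose by 0.20 in WT and fell by 0.23 in IDRmut, and CDC20, which activates the anaphase-promoting complex, rose by 0.58 and 0.23. The difference between the lists was not tested. In the comparison of the arms the 4 nucleotide supply genes had a median difference of 0.42, the mitotic list 0.27 and the 6 MCM2-7 genes 0.09. Other replication genes had a median of 0.08, with 11 of 37 higher in WT than IDRmut and 2 lower. For other nucleotide supply genes it was 0.12, with 11 of 25 higher and 3 lower, and for G1/S regulators 0.09, with 13 of 30 higher and 4 lower.

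**Figure D5:**
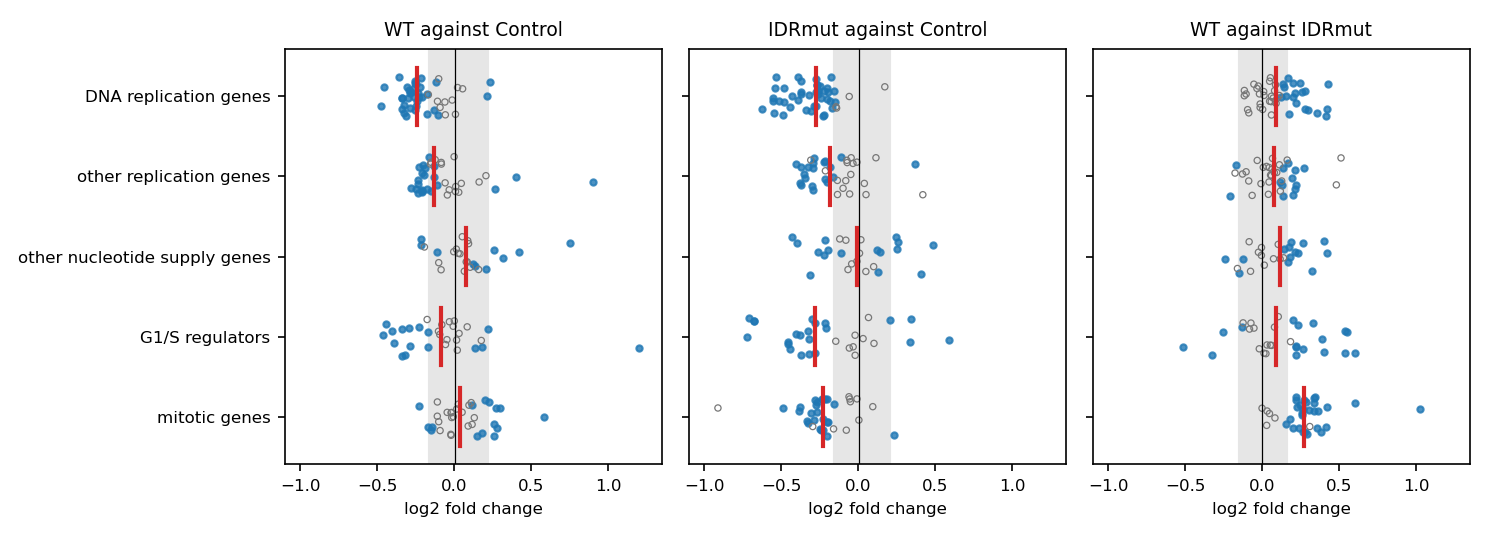
Log2 fold changes of the 45 replication genes and of 4 lists of related genes in each of the 3 comparisons; points are genes (filled where the adjusted p was under 0.05), red bars are medians and the grey band spans the middle quartiles of all genes tested. The medians of the replication genes are -0.24, -0.28 and 0.09, and those of the mitotic genes 0.04, -0.23 and 0.27.

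The genes were also set out by the E2F letters in their promoters, with no test of the difference. Among the 19 with the letters the median log2 fold change was -0.26 in WT and -0.37 in IDRmut, with 17 lower in each. Among the 20 with a window but no letters it was -0.19 and -0.27, with 12 lower and 1 higher (PRIM2) in WT and 19 lower in IDRmut. Of the 6 without a window, 4 were lower and 1 higher (GINS4) in WT, and 5 were lower in IDRmut. For WT over IDRmut the order was the other way, with a median of 0.09 with the letters and 0.16 without them. There 7 of the 19 and 11 of the 20 were called higher in WT, and 1 of the 6 without a window (median 0.02). Of the nucleotide supply genes, the letters were found in TYMS.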

How the data were processed

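Polyadenylated RNA from 6 libraries of H2170 cells was sequenced, 2 per group, and the authors deposited raw counts per gene, not normalized. Alignment and counting involved HISAT2 2.2.1, SAMtools 1.14 and featureCounts 2.0.1 on GRCh38, per the submitters' processing notes. Which annotation release and strand setting were used, and how multiply aligned reads were handled, is not given in the sources used here. Gene names came from the reference table of IDs, and positions, exon lengths, GC content and exon overlaps from GENCODE 29. Of the 45 genes, 21 share exon bases with another gene and 6 share over 20%, and their reads could not be separated. All columns of samples were used.

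Low counts were filtered with filterByExpr of edgeR (at least 10 counts, total at least 15), libraries scaled with TMM, and all 6 libraries fitted together with group means in edgeR 4.0.16 (R 4.3.3). The quasi-likelihood test gave 3 contrasts, with Benjamini-Hochberg adjustment over 16591 genes and calls below 0.05. The fitted biological coefficient of variation came to 0.0294. Counts of the 45 genes ran from 124 to 21091 per library; counting error is smallest in the second WT library, the deepest. Log2 fold changes are given ± SE. "Lost" means that the adjusted p was no longer under 0.05.

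Alternatives were DESeq2 1.42.0, other scalings, no filter, 2 groups only, a replicate block, a GC and length offset and each library left out. Genes are named by rule: in each role group the smallest adjusted p per contrast, the largest changes, calls against the majority, genes called nowhere, and up to 3 genes per related list; others complete a complex or were chosen after their values were seen. The genes and lists were chosen with earlier results of these data known. The procedure was tested on simulated data. Python 3.11.15 made tables and figures.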

Additional observations from a re-analysis of the deposited data

How the results depend on the processing

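Over 15 alternatives per comparison, the count of replication genes that fell was 27 to 38 in WT (33 as reported) and 33 to 42 in IDRmut (41), and 9 to 22 were higher in WT than in IDRmut (19). Leaving out 1 library gave 27 to 38, 33 to 41 and 9 to 21; the lowest counts of the last, 9 and 12, came without WT replicate 2 and without WT replicate 1. The median log2 fold change stayed between -0.26 and -0.18 in WT, between -0.30 and -0.24 in IDRmut and between 0.08 and 0.11 for WT over IDRmut. Calls held in all 15 alternatives for 25 of 35 genes in WT, 30 of 41 in IDRmut and 8 of 19 between the arms, and no named gene with a call changed sign. DESeq2 called 27 genes lower in WT, 34 lower in IDRmut and 14 higher in WT than in IDRmut.

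Over all genes, DESeq2 called 3649 in WT against Control, 3290 in IDRmut against Control and 2534 between the arms, where edgeR called 5807, 5237 and 4396. Leaving out 1 library gave 3974 to 7028, 3451 to 5522 and 2590 to 4761 such calls. Same-numbered replicates did not deviate together (correlations across genes of 0.01, -0.03 and -0.08). A small effect shared by libraries of the same number could still be missed. With a replicate block, 31 genes fell in WT, 39 fell in IDRmut and 18 were higher in WT than in IDRmut. Groups of 2 libraries are too small for a check of outlying samples. With 124 counts in its lowest library, the least expressed gene carries the largest counting error, and amplified copies of 1 molecule could not be recognised.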
